A study of Arabidopsis thaliana with 15 samples.

Results

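The genes described here are those whose root transcript level was higher after 1 h of Rose Bengal than in water and lower again at 3 h. Rose Bengal (RB) is a photosensitizing dye, which turns molecular oxygen into singlet oxygen when it absorbs light. Of the 14391 genes in the count table, 82 met the rule. It asked for a mean of at least 10 CPM (counts per 1000000 counts of the library) in RB 1 h. It also asked for a ratio of RB 1 h to water of at least 1.8, and a ratio of RB 3 h to RB 1 h of at most 0.65, with 1 CPM added to each mean. The water, RB 1 h and RB 3 h libraries therefore chose the genes, and their values are given as a description with no test. The RB 2 h libraries and the libraries of RB with hydrogen peroxide (H2O2) for 2 h, called RBH below, were not used by the rule.

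The roots came from wild-type Arabidopsis thaliana, ecotype Columbia-0, as seedlings 7 d old, with 30 to 50 seedlings pooled in each biological replicate. The 5 groups of 3 libraries each, lettered a, b and c, were water for 1 h, 10 µM RB for 1, 2 or 3 h, and RBH for 2 h. For RBH, the sample labels give 5 mM H2O2 with 10 µM of what is written there as MRB, a term they do not explain, and the water samples carry a 0 in their titles while their labels give 1 h. H2O2 alone was not analysed here, so in RBH the part of H2O2 by itself was not tested, and RB 2 h and 3 h have no water group of their own time. The sources used here do not state the light during the treatment. Libraries were made by MARS-seq, a method that samples the 3′ ends of transcripts.

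Singlet oxygen and H2O2 are reactive oxygen species that plants both make in stress and read as signals. The first wave of a stress response in a root can hold transcripts that come and go quickly. RNA of signalling proteins, cell wall enzymes and transporters can be made and degraded within hours, but RNA turnover was not measured here. The growing root wall is a network of cellulose, xyloglucan and pectin, loosened and rebuilt by enzymes such as the xyloglucan endotransglucosylases, and ubiquitin ligases mark proteins for destruction by the proteasome.

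Library totals ran from 897728 to 6230975 counts, so that 1 count stood for 0.160 to 1.11 CPM. On the third principal component of log2 CPM, with 7.40% of the variance, RB 1 h b scored -30.23 and RB 2 h a -46.83, while the other libraries scored -12.09 to 18.97. These libraries stand apart, and results that rest on them are given with and without them. The 7 root markers summed to 792 to 854 CPM in water, 782 to 977 after 1 h of RB, 540 to 643 after 2 h, 476 to 537 after 3 h and 570 to 772 in RBH. The 11 shoot green tissue markers summed to 552 to 799 CPM in water, 349 to 440 after 1 h of RB, 353 to 700 after 2 h, 221 to 270 after 3 h and 553 to 877 in RBH. No marker of either list was at 0 in the table, and the part of shoot tissue in the results below was not tested. In whole roots, fewer cells of a type and less RNA per cell cannot be told apart.

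The 82 genes were mostly of low level and modest change. Their median level was 7.70 CPM in water, 17.8 after 1 h of RB, 11.3 after 2 h, 8.45 after 3 h and 8.88 in RBH. In RB 1 h, 43 of them had a mean under 20 CPM and 8 had a mean over 100 CPM. The median ratio of RB 1 h to water was 2.18, and it was at most 2 in 26 genes. Of the 82, 81 encode proteins and 1 is a transfer RNA, and all 82 passed the filter on low counts that kept 9891 genes for the test.

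How far the libraries of the groups separated differed between genes. In 57 of the 82 genes every RB 1 h library was above every water library (17.6% of all genes tested), and in 47 every RB 1 h library was above every RB 3 h library (18% of all genes tested). Both held for 38 genes (2.47% of all genes tested), while in the other 44 the RB 1 h libraries overlapped those of water or of RB 3 h. The rule used these same libraries, so nothing is read from the 3 counts.

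**Figure D1:**
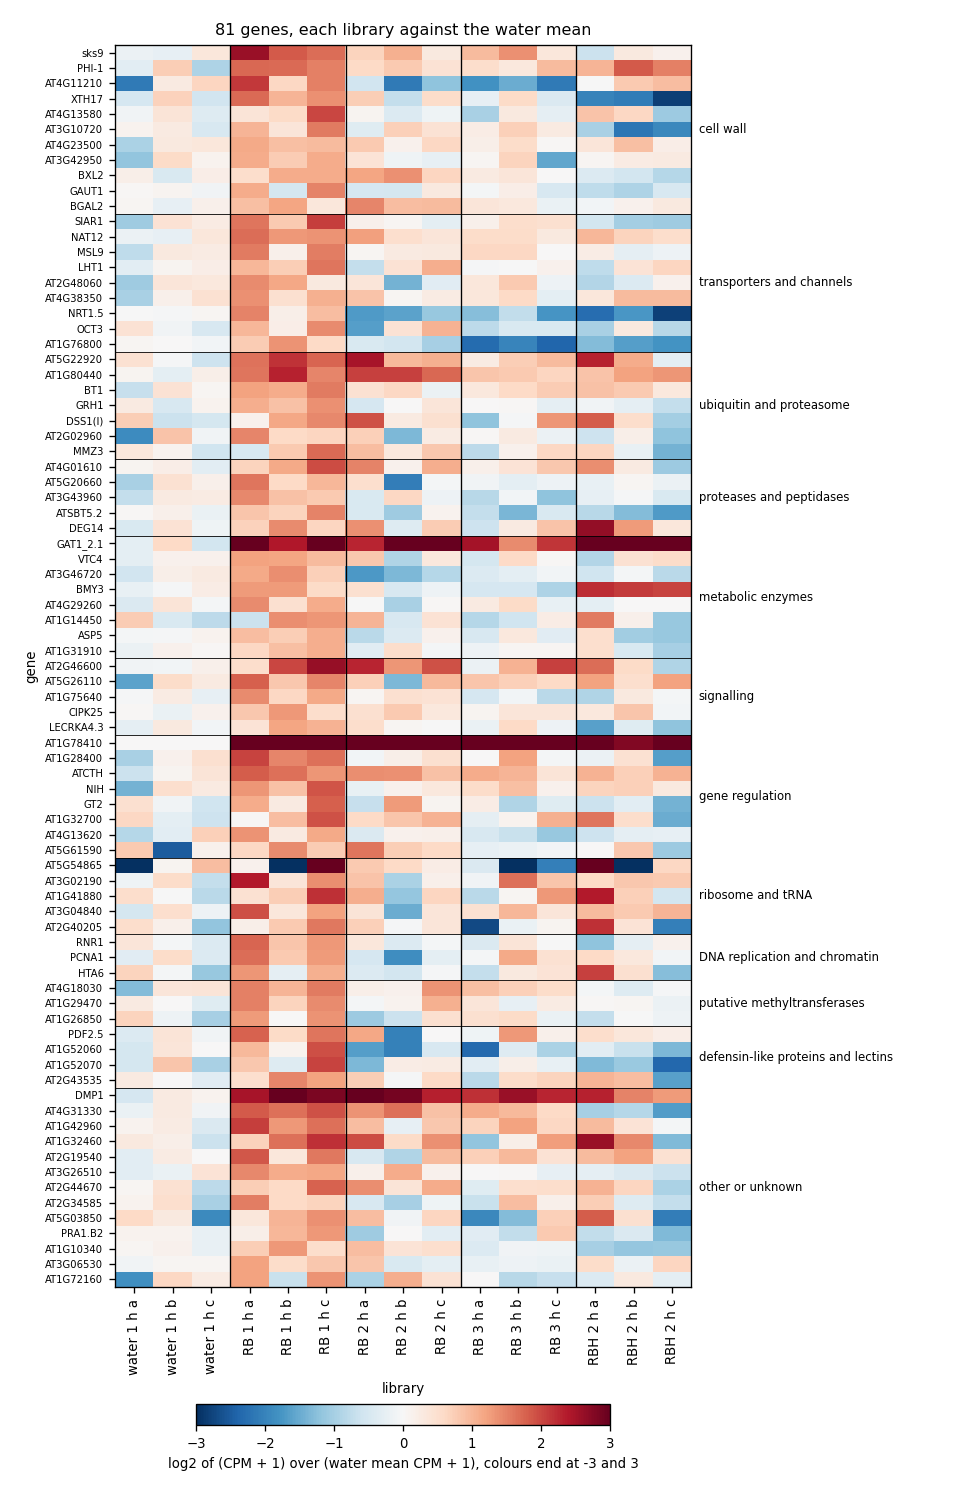
Level of 81 of the 82 genes in each of the 15 libraries as the log2 ratio of CPM + 1 to the water mean + 1, with genes in rows grouped by role, libraries in columns and colours ending at -3 and 3. The RB 1 h columns are red in most rows because the rule asked for it, RB 1 h b is paler than RB 1 h a and c in many rows, and only some rows, such as AT1G78410, GAT1_2.1 and DMP1, stay red in all RB and RBH columns.

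At 2 h of RB, the mean of 63 of the 82 genes lay nearer to water than to RB 1 h. The share of the 1 h rise present at 2 h, taken as the RB 2 h mean minus the water mean over the RB 1 h mean minus the water mean, had a median of 18.8%, with quartiles of -0.477% and 45.0%. The water and RB 1 h means in this share are those that chose the genes, and genes chosen for a high RB 1 h mean can lie lower in any other libraries through that choice, so the shares are a description. The same share had a median of 16.1% at 3 h, where the rule held it down, and 11.1% in RBH. At 2 h the share was under 25% in 49 genes and over 50% in 19. Without RB 2 h a, which stands apart, the median share at 2 h was 13.8%, without RB 1 h b 16.6%, and without both 10.8%. In 76 of the 82 genes the RB mean was highest at 1 h, and in the remaining 6 (DMP1, AT1G80440, BXL2, BGAL2, AT5G61590 and DSS1(I)) it was higher at 2 h than at 1 h. Without RB 2 h a, the 2 h mean of DSS1(I) was 6.80 CPM against 11.03 at 1 h, that of AT5G61590 14.2 against 17.8 and that of DMP1 7.71 against 10.3. Their higher mean at 2 h thus rested on that library, while AT1G80440, BXL2 and BGAL2 remained higher at 2 h without it and without both libraries that stand apart. GAT1_2.1 went the other way: without RB 2 h a its mean was 44.9 CPM at 2 h against 42.9 at 1 h. Without both libraries it was 44.9 against 50.7. Without RB 1 h b, DEG14 was also higher at 2 h, at 11.6 CPM against 10.9. In 32 genes the 2 h mean lay below the 3 h mean, and in 44 it lay between the 3 h and the 1 h means. Levels below water were reached by 23 genes at 2 h of RB, 29 at 3 h and 38 in RBH. These counts and the shares above rest on raw library totals, and the counts have no share of all genes beside them. On raw totals the median log2 change of all genes from RB 2 h to RBH was -0.20, against -0.0097 after the scaling used for the test. The part of scaling in the RBH count and share was not tested.

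Among the 11 cell wall genes, 6 had RB 1 h libraries above all water and all RB 3 h libraries, beside 38 of the 82 and 2.47% of all genes tested. The rule used these libraries, so nothing is read from this count. PHI-1 (AT1G35140), an EXORDIUM-like protein first found as induced by phosphate, stood at 43.4, 91.3 and 27.9 CPM in water, 181, 177 and 157 after 1 h of RB, 82.3, 94.4 and 73.3 after 2 h, 78.6, 68.3 and 106 after 3 h and 111, 198 and 157 in RBH. All RB 1 h libraries were above all other libraries of water and RB, and RBH overlapped RB 1 h. XTH17 (AT1G65310), which cuts and rejoins xyloglucan chains, stood at 5.57, 14.1 and 5.27 CPM in water, 29.4, 17.9 and 23.2 after 1 h of RB, 14.5, 4.67 and 12.6 after 2 h, 6.84, 12.8 and 5.86 after 3 h and 1.33, 1.17 and 0.321 in RBH. The RBH libraries, with 2 counts each, were the lowest of all 15.

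BXL2 (AT1G02640), a β-xylosidase that trims xylose from wall polysaccharides, was among the most abundant of the 82. It stood at 160, 103 and 164 CPM in water, 205, 310 and 307 after 1 h of RB, 327, 370 and 223 after 2 h, 171, 183 and 144 after 3 h and 107, 96.7 and 78.8 in RBH. RB 1 h and RB 2 h overlapped, and the next time point was lower than both. BGAL2 (AT3G52840), a β-galactosidase, followed the same order at 12.7 ± 1.93 CPM in water, 23.7 ± 6.91 after 1 h of RB, 29.1 ± 6.68 after 2 h and 14.6 ± 3.09 after 3 h (means ± SD, n = 3, as throughout).

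Pectin genes also belonged to the wall group. GAUT1 (AT3G61130), which builds the homogalacturonan backbone of pectin, had 17.2 ± 10.5 CPM in RB 1 h against 8.65 ± 0.654 in water, and RB 1 h b, at 5.65 CPM, lay below every water library. AT4G23500, annotated as a pectin lyase-like protein, had 58.5 ± 5.47 CPM in RB 1 h, 28.7 ± 12.3 in water and 42.1 ± 9.55 in RB 2 h. The largest ratio to water in the wall group belonged to sks9 (AT4G38420), a relative of the multicopper oxidase-like wall protein SKU5, at 14.8 ± 5.68 CPM in RB 1 h and 2.68 ± 0.881 in water. AT4G11210, annotated as dirigent-like, a family of proteins that steer the coupling of phenolic radicals, had 17 counts in all in water, 81 after 1 h of RB, 4 after 2 h, 2 after 3 h and 61 in RBH.

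The 9 transporter and channel genes held some of the steepest declines by 3 h. NRT1.5 (AT1G32450), which loads nitrate into the xylem for transport to the shoot, stood at 49.01, 48.5 and 51.7 CPM in water, 141, 56.5 and 95.6 after 1 h of RB, 14.5, 15.6 and 22.1 after 2 h, 19.8, 29.4 and 13.9 after 3 h and 9.33, 14.1 and 6.26 in RBH. All libraries of RB 2 h, RB 3 h and RBH lay below all water libraries. AT1G76800 (VTL2), of the vacuolar iron transporter family, stood at 44.6, 42.9 and 40.6 CPM in water, 72.9, 110 and 65.1 after 1 h of RB, 31.0, 29.1 and 20.8 after 2 h, 7.75, 10.1 and 7.33 after 3 h and 16.7, 12.9 and 11.6 in RBH. Both genes were thus above water at 1 h and below it in every later library, where the water group was that of 1 h.

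Amino acid carriers also belonged to this group. LHT1 (AT5G40780), which takes up amino acids into root cells, had 20.6 ± 6.89 CPM in RB 1 h against 8.61 ± 1.73 in water and 12.1 ± 7.34 in RB 2 h. SIAR1 (AT1G44800), an amino acid facilitator, had 12.2 ± 5.47 CPM in RB 1 h against 3.42 ± 2.02 in water and 3.37 ± 0.675 in RB 2 h. Of the channels that open under membrane tension, MSL9 (AT5G19520) had 24.7 ± 11.6 CPM in RB 1 h and 10.1 ± 3.94 in water, and the piezo-type channel gene AT2G48060 had 12.8 ± 4.95 and 5.78 ± 3.08, with overlapping libraries in both genes.

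In the 7 genes of the ubiquitin and proteasome group, the median share of the 1 h rise present at 2 h of RB was 70.6%, against 18.8% over the 82, and it was 30.3% without RB 2 h a, against 13.8%. This median is a description of 7 genes and has no test, and 3 of them (AT5G22920, DSS1(I) and MMZ3) were lowest in the deepest library of RB 1 h, RB 3 h and RBH. AT1G80440 (KMD1), a kelch-repeat F-box protein that picks targets for ubiquitin ligases, stood at 41.2, 31.6 and 44.3 CPM in water, 121, 198 and 109 after 1 h of RB, 165, 164 and 132 after 2 h, 70.6, 68.3 and 61.6 after 3 h and 71.3, 92.0 and 99.98 in RBH. All libraries of RB 1 h and RB 2 h were above all others. The RING-type zinc finger gene AT5G22920 had 10.5 ± 2.33 CPM in RB 1 h against 2.17 ± 1.15 in water and 9.10 ± 6.39 in RB 2 h, where the mean was 5.41 without RB 2 h a. BT1 (AT5G63160), a BTB and TAZ domain adaptor, kept 18.2% at 2 h, and GRH1 (AT4G03190, AFB1), an F-box protein of auxin perception, kept -0.296% (11.8% without RB 2 h a), at 17.1 ± 3.13 CPM in RB 1 h, 7.25 ± 2.08 in water and 7.22 ± 2.35 in RB 2 h.

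The 8 genes placed with metabolic enzymes included BMY3 (AT5G18670, also BAM9), which is annotated as a β-amylase and whose enzyme activity was not measured here. BMY3 stood at 55.7, 63.9 and 75.9 CPM in water, 160, 159 and 97.9 after 1 h of RB, 92.0, 46.7 and 58.1 after 2 h, 45.6, 45.4 and 33.7 after 3 h and 305, 283 and 269 in RBH. The RBH libraries were the highest of all 15, and the RB 3 h libraries the lowest. GAT1_2.1 (AT1G15040), a class I glutamine amidotransferase-like protein, stood at 3.34, 7.03 and 2.64 CPM in water, 43.1, 27.3 and 58.3 after 1 h of RB, 25.2, 44.6 and 45.1 after 2 h, 28.9, 13.4 and 22.7 after 3 h and 47.3, 44.6 and 44.9 in RBH. Water was below every treated library, and 88.1% of the 1 h rise was present at 2 h of RB, or 105.1% without RB 2 h a. It overlaps AT1G15030 on the opposite strand by 163 bases, a gene with means of 8.73 CPM in water and 11.48 in RB 1 h. VTC4 (AT3G02870), a phosphatase of ascorbate synthesis, had 13.5 ± 1.38 CPM in RB 1 h, 5.70 ± 1.08 in water and 6.87 ± 4.05 in RB 2 h.

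**Figure D2:**
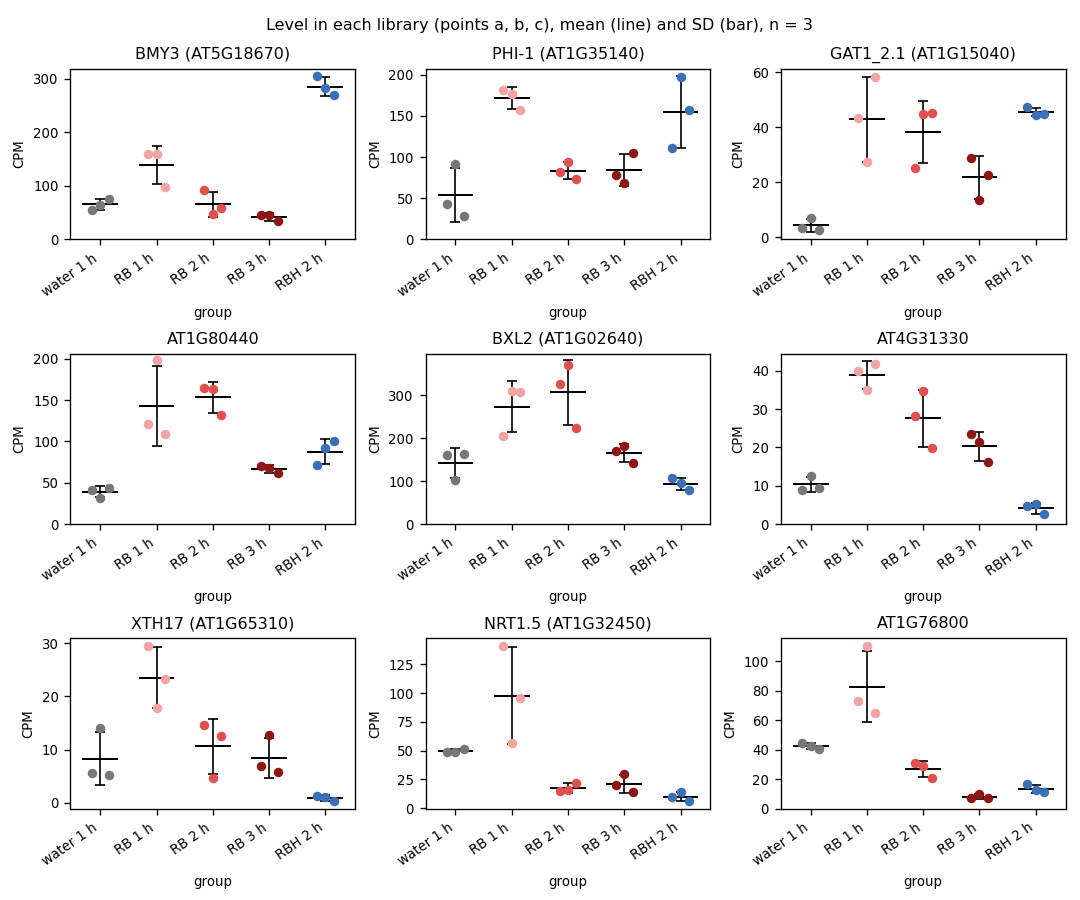
Level in CPM of 9 of the genes in each library (points a, b and c), with the mean as a line and the SD as a bar (n = 3 per group). BMY3 is highest in RBH at 269 to 305 CPM, AT4G31330 and XTH17 are lowest in RBH, the 2 h and 1 h points of RB overlap in BXL2 and AT1G80440, and NRT1.5 and AT1G76800 lie below water from 2 h on.

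Among the 6 signalling genes, CIPK25 (AT5G25110), a kinase of calcium signalling, had 35.9 ± 10.2 CPM in RB 1 h against 18.6 ± 2.22 in water. The EF-hand gene AT2G46600, whose domain binds calcium, had 26.1 ± 16.4 CPM in RB 1 h against 6.01 ± 0.726 in water and kept 94.0% of the rise at 2 h, or 74.0% without RB 2 h a.

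Of the 8 genes of gene regulation, AT1G78410, a VQ motif protein of a family that binds WRKY factors, had the largest ratio to water of all 82. It had 0 counts in the 3 water libraries and 24.2, 18.8 and 30.0 CPM in RB 1 h, at least 35.1-fold higher with a floor of 3 counts over the water group, which is 0.711 CPM. Its later levels were 11.6, 10.4 and 10.8 CPM in RB 2 h, 10.3, 14.95 and 16.1 in RB 3 h and 8.66, 5.86 and 7.54 in RBH. The gene was thus not detected in water and present in every treated library. ATCTH (AT2G25900), a CCCH zinc finger protein of a family that binds RNA, stood at 59.9 ± 20.5 CPM in water, 185 ± 31.6 after 1 h of RB, 143 ± 27.3 after 2 h, 110 ± 27.4 after 3 h and 116 ± 14.5 in RBH. AT4G13620 and AT5G61590 (DEWAX), whose annotated integrase-type DNA-binding domain is that of the AP2/ERF factors, had 22.4 ± 8.24 and 17.8 ± 5.82 CPM in RB 1 h against 10.8 ± 6.76 and 8.60 ± 7.49 in water.

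None of the listed early stress factors met the rule. Lists of WRKY, ZAT and AZF, ERF, CBF, DDF and DREB2, MYB and NAC, and heat shock factors held 103 genes, of which 88 were in the table and 27 met the level and the 1 h criteria. None of these 27 met the 3 h criterion, and 23 of them (85.2%) were at or above their RB 1 h mean at 3 h. Over the whole table, 802 genes met the level and 1 h criteria, 82 of them (10.2%) met the 3 h criterion as well, and 473 (59.0%) were at or above the RB 1 h mean at 3 h. These shares come from the libraries of the rule and have no test. The lists were chosen with earlier results of these data known, so nothing is read from the shares. The 2 AP2/ERF genes among the 82 were not on these lists.

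The 5 ribosome and tRNA genes included AT3G04840, a ribosomal protein S3Ae of the small subunit, at 274, 90.5 and 167 CPM in RB 1 h against 49.01, 102 and 63.8 in water and 94.0, 24.9 and 92.8 in RB 2 h. RB 1 h b lay within the water range. AT3G02190, of the ribosomal protein L39 family, and AT1G41880, of the L35Ae family, had 17.0 ± 11.8 and 10.5 ± 8.05 CPM in RB 1 h against 4.94 ± 2.58 and 3.56 ± 2.00 in water, again with overlapping libraries. No gene of this group had RB 1 h libraries above all of water and all of RB 3 h, beside 38 of the 82 and 2.47% of all genes tested. Nothing is read from this, since the rule used these libraries.

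The transfer RNA is a tRNA-Met gene, AT5G54865, on the minus strand of chromosome 5 (chr5:22287626-22287697, TAIR10.1, RefSeq annotation). Its sequence of 72 bases is shown because it occurs at 6 identical sites in the genome, so reads cannot be told to come from this copy, and of the 6 annotated genes this alone is in the table.
AT5G54865: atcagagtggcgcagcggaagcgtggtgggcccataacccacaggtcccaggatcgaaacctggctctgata
It had 1, 78 and 190 counts in water, 175, 0 and 2086 after 1 h of RB, 93, 153 and 140 after 2 h, 168, 0 and 16 after 3 h, and 5073, 0 and 505 in RBH. The RB 1 h mean thus rests on RB 1 h c, and 3 libraries of the treated groups hold no count of it. It alone gives 3381 of the 5301 CPM to which the 82 genes sum in RBH a.

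The 3 DNA replication and chromatin genes were RNR1 (AT2G21790), the large subunit of the enzyme that makes deoxyribonucleotides, PCNA1 (AT1G07370), the sliding clamp of DNA polymerases, and HTA6 (AT5G59870), a histone H2A. RNR1 had 16.4 ± 5.32 CPM in RB 1 h, 5.88 ± 1.804 in water and 5.85 ± 1.81 in RB 2 h. PCNA1 had 12.53 ± 4.10, 4.51 ± 2.18 and 2.30 ± 1.57 CPM in the same groups. HTA6 had 15.4 ± 7.84, 8.09 ± 5.11 and 6.27 ± 1.37 CPM. Among these only RNR1 had RB 1 h libraries above all water and all RB 3 h libraries, beside 38 of the 82 and 2.47% of all genes tested.

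The 5 protease and peptidase genes, 3 putative methyltransferases and 4 defensin-like and lectin genes stood between 10.1 and 39.0 CPM in the RB 1 h mean. The exopeptidase gene AT5G20660 had 31.8 ± 11.8 CPM in RB 1 h and 14.1 ± 6.67 in water. PDF2.5 (AT5G63660), a small defensin, had 37.7 ± 14.9 and 13.7 ± 4.21 CPM. AT1G29470, annotated as a methyltransferase, had 23.0 ± 6.89 and 9.04 ± 2.15 CPM.

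Neighbouring positions were rare among the 82. AT1G52060 and AT1G52070, both annotated as mannose-binding lectins, lie 3986 bases apart on chromosome 1 and on the same strand, and near-identical copies can share reads in the authors' counting, so their levels are uncertain. Their RB 1 h libraries were 11.1, 5.65 and 22.6 CPM and 29.7, 12.3 and 69.6 CPM, highest in RB 1 h c in both. NRT1.5 and AT1G32460 also neighbour each other, 18129 bases apart. By the annotation, 23 of the 82 overlap another gene and 10 overlap one that is in the table. The sources used here do not say whether counting used the strand, so the levels of overlapping genes are uncertain.

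Of the 13 genes of other or unknown role, AT4G31330, a putative membrane protein with a DUF599 domain, stood at 8.91, 12.7 and 9.49 CPM in water, 39.9, 34.9 and 41.9 after 1 h of RB, 28.1, 34.8 and 19.95 after 2 h, 23.5, 21.4 and 16.1 after 3 h and 4.67, 5.28 and 2.57 in RBH. Every RB library was above every water library, and every RBH library was below. DMP1 (AT3G21520), a membrane protein linked to senescence, had 2 counts in all in water, 6.86, 15.1 and 9.05 CPM in RB 1 h and 26.2, 9.34 and 6.07 CPM in RB 2 h, where RB 2 h a set its higher mean.

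The comparison of RBH with RB alone at 2 h used only libraries outside the rule. It asks what differs when H2O2 is present with the dye, within the limits of the label given above. Of the 82 genes, 3 rose in RBH and 7 fell (adjusted p under 0.05 in edgeR's quasi-likelihood test, by Benjamini-Hochberg over all genes). Over all 9891 genes, 9.82% rose and 6.97% fell, so that 10 of 82 stand beside 16.8% called in either direction. The median log2 fold change was -0.12 over the 82 and -0.02 over all genes, and 53.7% of the 82 and 51.4% of all genes lay below 0. In the median and the share below 0 the 82 were therefore near all genes tested, while their share called higher was under that of all genes. The part of the low level of many of the 82 in these calls was not tested. What follows is about single genes. Scaling by the trimmed mean of M values moved the median of all genes by 0.19 on the log2 scale from that on raw totals, and fold changes here are relative to that scaling.

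BMY3 rose from 65.6 ± 23.6 CPM in RB 2 h to 286 ± 18.3 in RBH, a log2 fold change of 2.35 (SE 0.26, adjusted p = 1.1e-06, edgeR). All 3 RBH libraries were above all 3 RB 2 h libraries. The 3′ end of BMY3 overlaps that of TLP11 (AT5G18680), a tubby-like protein gene on the opposite strand, by 33 bases. TLP11 had a mean of 197 CPM in RB 2 h and 123 in RBH (log2 fold change -0.48, adjusted p = 0.114), a difference of opposite sign that did not pass the test.

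PHI-1 rose from 83.4 ± 10.6 to 155 ± 43.5 CPM, with a log2 fold change of 1.099 (SE 0.30, adjusted p = 0.0143), and its RBH libraries did not overlap those of RB 2 h. The call was lost without RB 2 h c (adjusted p = 0.0799), without RBH b (adjusted p = 0.0861) and without both libraries that stand apart (adjusted p = 0.0508), over a range of 0.00379 to 0.0861 in all alternatives. AT4G11210 rose from 0.935 ± 0.970 to 5.67 ± 2.06 CPM, with a log2 fold change of 3.06 (SE 0.78, adjusted p = 0.00853) that rests on 4 counts in RB 2 h. Without RB 2 h b its adjusted p was 0.0562 and without RBH c 0.0522.

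The 7 genes that fell in RBH included 3 of the cell wall. XTH17 fell from 10.6 ± 5.22 CPM in RB 2 h to 0.942 ± 0.544 in RBH, a log2 fold change of -3.63 (SE 0.64, adjusted p = 0.00036). AT3G10720, annotated with pectin methylesterase inhibitors, fell from 14.5 ± 5.32 to 3.11 ± 1.94 CPM (-2.19, SE 0.42, adjusted p = 0.000746). BXL2 fell from 307 ± 75.3 to 94.1 ± 14.1 CPM (-1.51, SE 0.24, adjusted p = 0.000101). Every RBH library of these 3 genes was below every RB 2 h library.

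The remaining 4 were of other or unknown role. AT4G31330 fell from 27.6 ± 7.41 to 4.17 ± 1.42 CPM (-2.68, SE 0.33, adjusted p = 5.08e-06) and the ankyrin repeat gene AT1G10340 from 37.0 ± 7.46 to 10.5 ± 0.750 CPM (-1.61, SE 0.29, adjusted p = 0.000384). These, with BMY3, BXL2, XTH17 and AT3G10720, kept their call in every alternative that gave a value. AT3G26510, with a Phox and Bem1p domain of protein binding, fell from 51.4 ± 22.4 to 25.5 ± 3.26 CPM (-0.83, SE 0.26, adjusted p = 0.0298), and without RB 2 h b its log2 fold change was -0.42 (adjusted p = 0.332). DMP1 fell from 13.9 ± 10.8 to 3.78 ± 1.94 CPM (-1.71, SE 0.55, adjusted p = 0.0336), and without RB 2 h a, which stands apart, it was -0.90 (adjusted p = 0.237). Both also lost their call without RBH b and without RBH c, with adjusted p up to 0.171, and with only the 6 libraries of RB 2 h and RBH in the fit (adjusted p = 0.0792 for AT3G26510 and 0.0852 for DMP1).

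**Figure D3:**
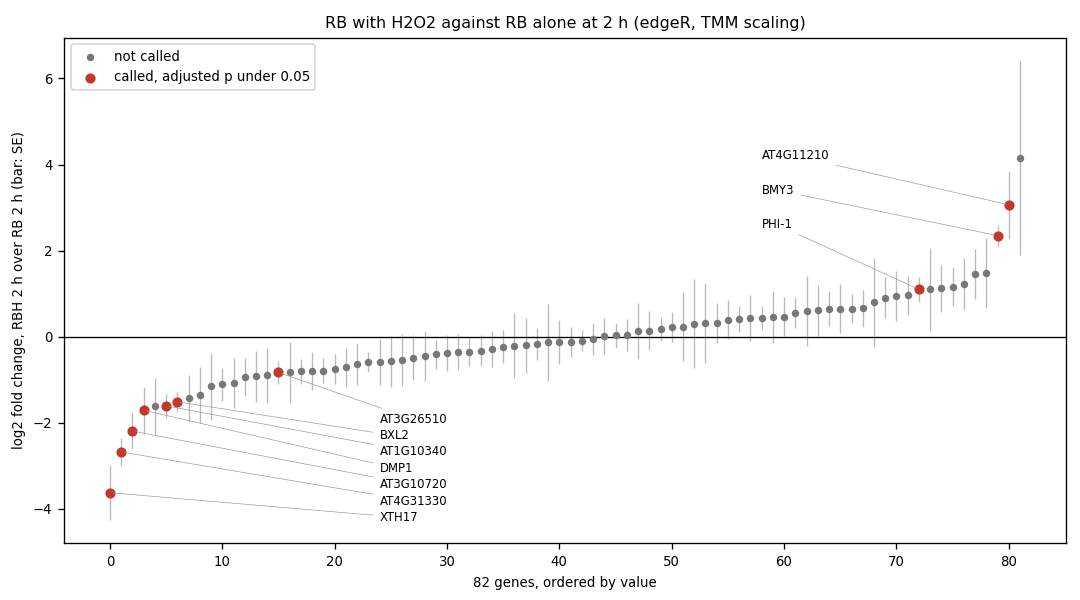
The log2 fold change of RBH 2 h over RB 2 h for each of the 82 genes in order of value, with SE bars from the fit over all 15 libraries, and in red the genes called at an adjusted p under 0.05. The 3 genes called higher are BMY3, AT4G11210 and PHI-1, the 7 called lower reach from -0.83 for AT3G26510 to -3.63 for XTH17, and the topmost point, with the longest bar, is the tRNA-Met gene, which was not called.

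By library order alone, 6 of the 82 had all RBH libraries above all RB 2 h libraries (10.6% of all genes tested) and 16 had them below (19.3% of all genes tested), both near or under the share of all genes. These orders use CPM on raw totals, on which the median log2 change of all genes from RB 2 h to RBH was -0.20. The part of scaling in these counts and shares was not tested. Genes close to the threshold included LECRKA4.3 (AT5G01560), a lectin receptor kinase, at -1.11 (SE 0.39, adjusted p = 0.0534), BGAL2 at -0.80 (SE 0.29, adjusted p = 0.0585) and AT1G76800 at -0.79 (SE 0.29, adjusted p = 0.0647).

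Of the wall genes related to PHI-1 and XTH17, a list of touch-inducible xyloglucan enzymes and EXORDIUM genes held 9 genes, 8 of them in the table. In RBH against RB 2 h, 6 of the 8 fell and 1, PHI-1, rose, where 6.97% of all genes tested fell and 9.82% rose. The median log2 fold change of the 8 was -1.14, against -0.02 over all genes. This list and the nitrate list below were chosen with earlier results of these data known, and neither was tested as a set. TCH4 (AT5G57560) fell from 43.4 ± 21.6 to 10.8 ± 4.50 CPM (-1.93, SE 0.43, adjusted p = 0.00422), and XTH18 (AT4G30280), a close relative with which XTH17 may share reads, dropped from 178 ± 62.6 to 62.5 ± 14.1 CPM (-1.33, SE 0.35, adjusted p = 0.0152). In time, XTH18 differed from XTH17: its mean was 218 CPM in RB 1 h and 252 in RB 3 h, so it did not meet the rule. The list of early nitrate response genes held 14 genes, 13 in the table, and BT1 alone of them met the rule. In RBH against RB 2 h, 1 of the 11 tested rose and 3 fell, beside 9.82% and 6.97% of all genes, with a median log2 fold change of 0.16, and BT1 had a log2 fold change of 0.56 (SE 0.36, adjusted p = 0.32).

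The promoters of 2 genes are shown: BMY3 had the smallest p of the genes that rose in RBH against RB alone, and PHI-1 alone held the CAMTA site. They span 250 bases before to 50 after the annotated start of the transcript, both on the plus strand of TAIR10.1, with the RefSeq annotation. In BMY3 (chr5:6225706-6226005), capitals mark an as-1 core (TGACG) and a G-box (CACGTG). In PHI-1 (chr1:12851733-12852032), they mark a W-box (TTGACT) and, on the other strand, the CAMTA site or rapid stress response element (CGCGTT).
BMY3: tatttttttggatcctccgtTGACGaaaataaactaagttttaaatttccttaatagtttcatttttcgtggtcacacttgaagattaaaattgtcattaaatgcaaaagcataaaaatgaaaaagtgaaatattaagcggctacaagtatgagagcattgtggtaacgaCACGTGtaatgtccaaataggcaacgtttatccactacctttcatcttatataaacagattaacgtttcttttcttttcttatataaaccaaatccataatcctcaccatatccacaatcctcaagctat
PHI-1: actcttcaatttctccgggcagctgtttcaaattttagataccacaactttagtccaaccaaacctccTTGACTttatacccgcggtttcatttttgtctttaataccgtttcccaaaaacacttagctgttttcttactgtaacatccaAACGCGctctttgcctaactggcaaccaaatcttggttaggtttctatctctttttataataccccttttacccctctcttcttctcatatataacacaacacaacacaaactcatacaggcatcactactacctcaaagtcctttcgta

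Of the 8 motifs searched, the as-1 core was the only one found in a larger share of the 81 promoters than of all promoters. Both strands were searched in 81 promoters of the 82 genes, 9747 of the genes tested and 27561 of all genes. CGCGTT was in 1.23% of the 81, that of PHI-1, against 3.74% of genes tested and 3.4% of all. The W-box TTGACC was in 13.6% against 14.5% and 14.1%, and TTGACT in 13.6% against 22.1% and 21.8%. The G-box was in 4.94% against 9.39% and 7.65%, and the as-1 core in 24.7% against 23.6% and 23.0%. The GCC-box (GCCGCC) was in 1.23% against 2.74% and 2.58%, the core of the dehydration-responsive element (CCGAC) in 13.6% against 16.5% and 15%, and the heat shock element (GAANNTTC) in 8.64% against 11.1% and 11.6%. These are matches of letters in the window and have no test.

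Membership depended on single libraries. With each of the 9 libraries of the rule left out in turn, between 74 and 220 genes met it. Without RB 1 h b, which stands apart, 220 genes met it, 67 of them among the 82. RB 1 h b was the lowest of its group in 49 of the 82 genes, RB 1 h a in 19 and RB 1 h c in 14. Without RB 1 h c, 75 genes met the rule and 48 of the 82 were among them, and without RB 3 h a 74 met it, with 63 of the 82. On TMM-scaled totals, which move the median of all genes between RB 1 h and water by -0.17 on the log2 scale, 49 genes met the rule, all among the 82. All 9 exclusions left 17 of the 82 in place. Of these, 15 had RB 1 h libraries above all of water and of RB 3 h, beside 38 of the 82 and 2.47% of all genes tested. Both counts come from the libraries of the rule and are no independent support for these genes. The 17 were BMY3, AT4G31330, XTH17, PHI-1, AT3G26510, AT1G80440, AT3G46720 (a UDP-glycosyltransferase), GAT1_2.1, sks9, AT1G29470, AT1G28400 (a GATA zinc finger), GRH1, VTC4, NAT12 (a nucleobase transporter), AT1G32460, LHT1 and RNR1.

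**Figure D4:**
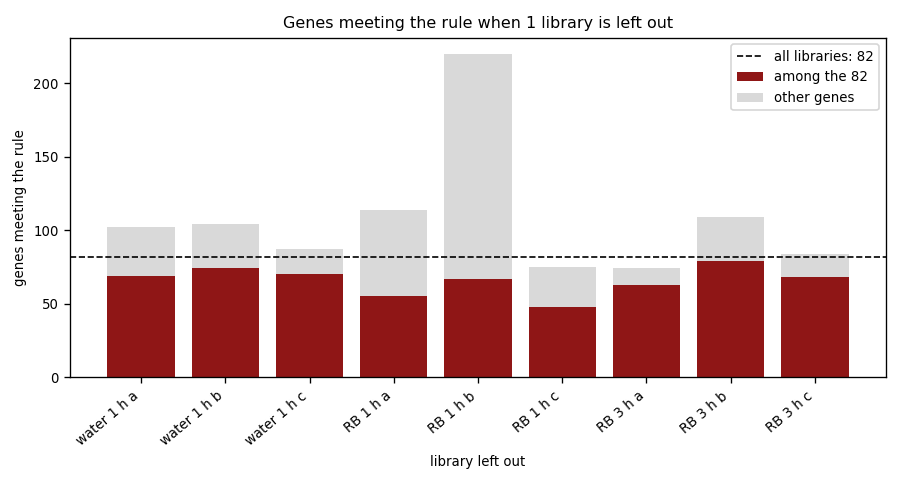
Number of genes that met the rule with 1 library left out, with the part of each bar that belongs to the 82 in red and other genes in grey, and a dashed line at 82. The bar without RB 1 h b reaches 220, the bars without RB 1 h c and RB 3 h a reach 75 and 74, and the red part is lowest, at 48, without RB 1 h c.

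The thresholds cut through a continuous range of values. Just inside the level of 10 CPM lay ATSBT5.2, a subtilase, at 10.1, DMP1 at 10.3 and PRA1.B2 at 10.4 CPM, and just outside lay MEE14 at 9.92, DHAR1 at 9.88 and AT2G19390 at 9.84. For the ratio to water, the values were 1.8006 for BGAL2, 1.8076 for HTA6 and 1.827 for AT1G72160 inside, against 1.7993 for AT2G20670, 1.7991 for AT4G39675 and 1.7908 for AT4G33150 outside. For the ratio of RB 3 h to RB 1 h they were 0.647 for DSS1(I), 0.642 for AT3G02190 and 0.642 for DMP1 inside, against 0.652 for AT2G36580, 0.653 for AT1G31780 and 0.656 for PTB3 outside.

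Some of the 82 were lowest in the deepest library of several groups. In 16 of them the deepest library was the lowest of its group in RB 1 h, RB 3 h and RBH alike, against 5.31% of all genes tested. The rule used RB 1 h and RB 3 h, so the count is a description. The 16 include AT2G46600, DMP1, AT5G22920, AT1G32460, AT4G01610, AT4G13580, DSS1(I), MMZ3 and ribosomal genes such as AT2G40205, of the L41 family. Their median transcript length was 942.5 bases, against 1856 in the other genes of the 82 and 1717 in all genes tested. In RBH, AT2G40205 stood at 69.3, 19.3 and 2.73 CPM in a, b and c, where c was the deepest library. In RB 1 h most of the 16 rose from b, the shallowest library, to c, such as AT2G40205 from 25.4 to 44.7 CPM. In RB 2 h most of them were highest in a, the shallowest library, which stands apart, and most were not lowest in c, the deepest. AT2G40205 stood there at 24.2, 14.0 and 18.65 CPM in a, b and c. In water most of them were lowest in c, the deepest water library, such as AT2G40205 at 21.2, 16.2 and 5.80 CPM. The part of depth in these genes' values was not tested.

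**Figure D5:**
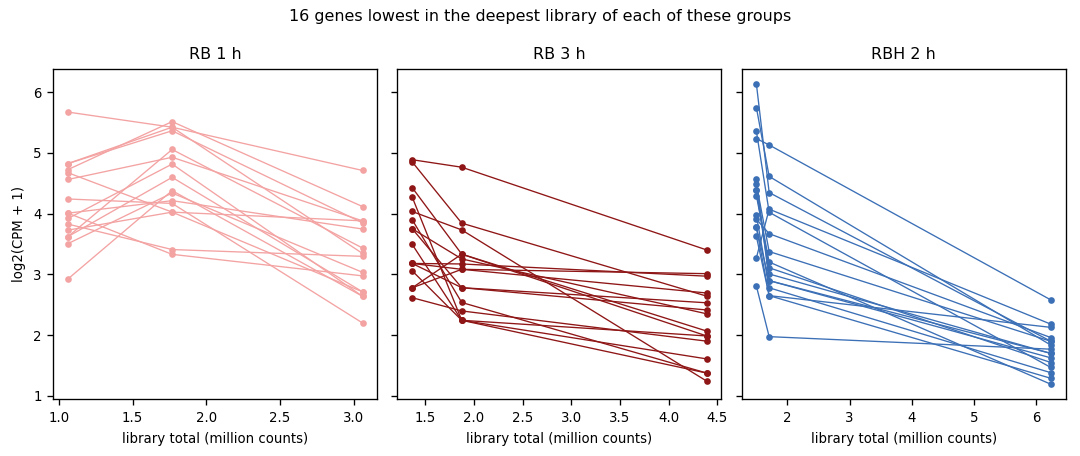
Level as log2(CPM + 1) against library total for the 16 genes that were lowest in the deepest library of RB 1 h, RB 3 h and RBH 2 h, with 1 line per gene and 1 point per library. The deepest library is the lowest point of each line by construction, and in RBH, where the deepest library has 6230975 counts, most lines also step down between the other libraries. In RB 1 h most lines rise from the shallowest library to the next.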

How the data were processed

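Read counts per gene in 15 root libraries were deposited by the authors as whole numbers (unit: counts) for 14391 genes. Per the submitters' processing notes, the tools included STAR 2.4.2a and HTSeq, besides bcl2fastq, cutadapt and DESeq2. Their settings, the build and annotation, the strand of counting and the handling of molecular identifiers are not stated there, so floors cover counting error only. Of the deposited table, 30 other per-library columns and the authors' comparisons were not used. TAIR10.1 (RefSeq) held 14356 of the loci and was used for names, positions and promoters.

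CPM were computed on the raw column sum of each library. Counts were tested with edgeR 4.0.16 in R 4.3.3, with filterByExpr (9891 genes kept, 4500 set aside), TMM scaling, 1 coefficient per group over all 15 libraries, robust quasi-likelihood F tests (two-sided) and Benjamini-Hochberg adjustment over the 9891 genes. The procedure was also run on simulated counts that had the same spread for all genes and changes only in genes with higher counts. That run differs from the low-level genes described here and is not used as support. Principal components used log2 CPM with a prior count of 2. The labels call the libraries biological replicates. The p-values weigh a group difference against the spread between replicate libraries, estimated over all 15 libraries of the 5 groups. Replicate pairs differed by a chi-square of 3.00 to 11.1 per degree of freedom, more than counting error.

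The members, role lists, motifs and tests were chosen with earlier results of these data known. Named genes were those with the highest ratio of RB 1 h to water, the lowest ratio of RB 3 h to RB 1 h, the smallest p in RBH against RB 2 h, the highest level overall or in their role, and those nearest a threshold. Other genes that are named were chosen after their values were seen. Alternatives were DESeq2 1.42.0 (test and size factors), no filter, a replicate block, only the 6 libraries compared, left-out libraries, and other scalings and thresholds of the rule. Values of 1 of the 82 genes and 1 promoter are not reported here.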

Additional observations from a re-analysis of the deposited data

How the results depend on the processing

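The number of genes that met the rule was 82, and it was 49 with TMM-scaled totals, 38 with 5 CPM added to the means and 26 with ratios of at least 2 and at most 0.5; leaving out 1 library gave 74 to 220. The last 2 settings are stricter by construction, and TMM scaling moved the median of all genes in RB 1 h against water by -0.17 (log2). Totals without organelle genes gave 83 and 0.1 CPM added gave 104.

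In RBH against RB 2 h, 1660 genes were called, against 1067 with only the 6 libraries of these groups, where fewer libraries estimate the spread, and 1077 (without RBH c) to 1952 (without RB 2 h a) with 1 library left out. Of the 82, 3 were called higher and 7 lower; with only those 6 libraries 2 and 4 were, and with 1 library left out 2 to 4 and 5 to 9. DESeq2 called 1569 genes, with the same 3 and 7 counts, and without RB 1 h b and RB 2 h a 2235 genes, 3 and 9. None of the 10 called genes among the 82 reversed its direction in these alternatives.

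A replicate block on the letters a, b and c gave 1434 genes, 3 higher and 6 lower, with AT3G26510 (adjusted p = 0.0532) and DMP1 (adjusted p = 0.0511) no longer called and LECRKA4.3 (adjusted p = 0.0421) called lower. Between RB 2 h and RBH the letters showed little pairing: across 9891 genes the deviations of same-lettered libraries correlated at 0.0882, 0.0139 and -0.0146. Other groups were not compared, so pairing in the series was not excluded.

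Levels of 1 or 2 counts limit the low genes, such as XTH17 in RBH and AT4G11210 in RB 2 h, and groups of 3 libraries limit every test.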
